A study of Mus musculus with 12 samples.

Results

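The genes described here encode 10 enzymes of glycolysis in mouse limb buds: Hk1, Hk2, Gpi1, Aldoa, Tpi1, Pgk1, Pgam1, Eno1, Pkm and Ldha. They were chosen by symbol. Their values came from the expression table, where these 10 symbols stood on 11 of 31723 rows, and from all m6A peaks listed under the same gene identifiers, 19 peaks of 41196 in the control list and 29 of 46758 in the knockout list. The control animals, called cHet, carried 1 wild-type and 1 floxed allele of Mettl14 (Mettl14 wt/flox). The knockout animals, called cKO, carried floxed alleles on both chromosomes (Mettl14 flox/flox). The METTL14 protein works with METTL3 in the writer complex that places N6-methyladenosine (m6A) in RNA. All limb buds were taken at E12.5. Each genotype gave 3 input libraries, made from RNA as extracted, and 3 libraries made after pull-down with an antibody against m6A (IP). The replicates are labelled biological. Not given in the sources used here are whether a replicate pooled several embryos, and the Cre line that recombines the floxed alleles and so sets which cells lose Mettl14.

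Glycolysis splits glucose into pyruvate in the cytosol and yields ATP without oxygen. Hexokinases trap glucose as a phosphate ester, the middle enzymes rearrange and split the sugar, the later enzymes harvest ATP, and lactate dehydrogenase turns pyruvate into lactate while it restores NAD+. Limb buds are embryonic outgrowths in which mesenchymal cells proliferate and condense into cartilage, which has few blood vessels, and genes of this pathway are textbook targets of the hypoxia-inducible factors (HIF).

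RNA of 9 of the 10 enzymes fell in cKO limb buds, to between 67.0% and 84.7% of the cHet mean, and none rose. The falls of the greatest size were those of Aldoa, Eno1 and Ldha. Hk1 did not pass the test, with a cKO mean at 99.3% of the cHet mean. Values are FPKM, which corrects fragment numbers for the length of the transcript and the total of the library. Each gene was tested with limma on log2(FPKM + 1), so that every log2 change below is on that scale, and an adjusted p under 0.05 over all 13575 genes tested counted as passing. Of all tested genes, 17.5% passed as lower in cKO and 18.7% as higher. Among genes that averaged 30 FPKM or more, a level chosen after the values were seen, 38.5% passed as lower. Of all tested genes, 25.1% had 3 cKO values below all 3 cHet values, against these same 9 of the 10 enzymes. The median log2 change of the 10 enzymes was -0.42 and that of all tested genes 0.00. Without cHet replicate 2, cKO replicate 2 or cKO replicate 3, the enzymes that passed as lower numbered 3, 5 and 5. Aldoa, Pkm and Ldha were among them each time, while Hk2, Gpi1, Pgk1 and Pgam1 lost their calls each time. Since these are bulk libraries, fewer cells of a type and less RNA per cell cannot be told apart.

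With each library rescaled to the same sum (TPM), 6 of the 10 enzymes passed as lower, the median of all tested genes moved to 0.12 and that of the enzymes to -0.29, and Hk1 turned to a log2 change of 0.12. That rescaling also changed the split of all calls from 2377 lower and 2535 higher to 1382 lower and 3869 higher. The summed FPKM of the columns as deposited ran from 261691.5 to 275299.5 in cHet and from 237287.9 to 255907.3 in cKO, without overlap. A value of 0 was listed for 5671 to 5874 genes per cHet library and for 6252 to 6822 genes per cKO library. Mettl14, the targeted gene, was at 5.08, 4.54 and 4.39 FPKM in cHet, against 2.67, 3.07 and 2.63 in cKO (log2 change -0.58, limma adjusted p = 0.00289), with no overlap between genotypes. The labels do not name the exons between the loxP sites, so these values count reads of the whole gene. All 10 limb mesenchyme markers listed for the check of the tissue were among the tested genes and summed to between 458 and 695 FPKM per library.

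**Figure D1:**
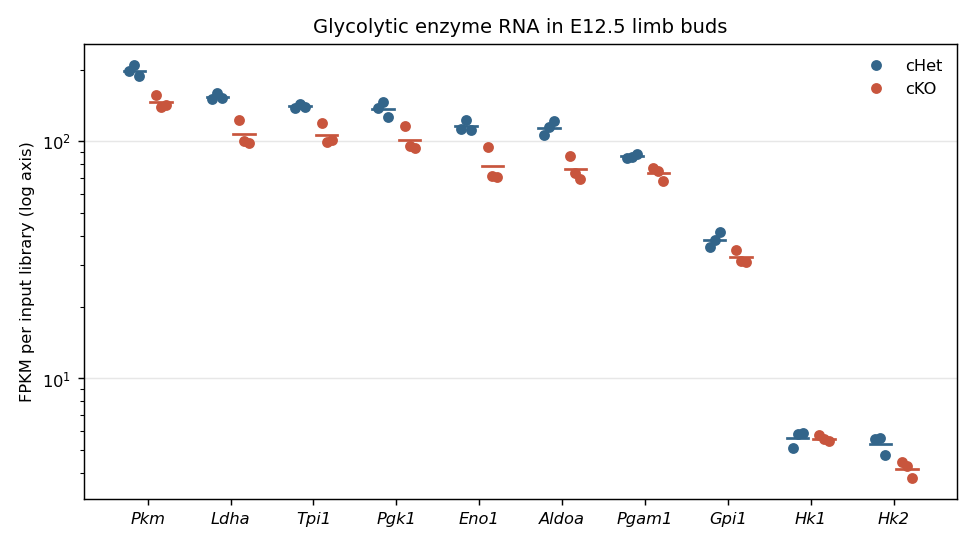
FPKM of each glycolytic enzyme gene in the 6 input libraries on a log axis, with cHet in blue, cKO in red, points for libraries in replicate order from left to right and bars for group means. For 9 genes the 3 cKO points lie below all 3 cHet points, and for Hk1 they overlap.

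The letters ACGTG and GCGTG form the core of the hypoxia response element, to which HIF binds, and were looked for because the enzyme genes moved together and because HIF is a textbook activator of them. RefSeq promoter windows of build GRCm38.p6 were found for 10 of the 10 genes, as 17 windows of 300 bases, each with 250 bases before an annotated transcript start and 50 after it. At least 1 of the 2 words stood on either strand in a window of 8 of the 10 genes, all except Gpi1 and Tpi1, while 46.7% of 27025 genes had such a window. By window, 12 of 17 held a match, against 43.8% of 32851. Some windows of a gene overlap, so that windows of Eno1 and of Aldoa hold the same matches. A gene with more windows has more room for a match. The shares of all genes and windows were not matched to the enzymes for base content, RNA level or windows per gene. The word ACGTG by itself occurred in 7 of the 10 genes and in 21.8% of all genes. The longer word CACGTG, which reads alike on both strands and holds ACGTG on each of them, stood in a window of Ldha among the enzymes and in 8.09% of all genes. A match is a run of letters and no evidence of a bound site. The 250 bases before the start are shown for 4 genes with at least 2 matches there, from the entry step to lactate. Hk1, with matches at -196, -15 and -12 from its start, also has at least 2 and is not shown. The same holds for Eno1, with matches at -86 and -62 in 1 window. Bases are on the strand of the gene, with the matched letters of either strand in capitals.
Ldha chr7:46845554-46845803 plus strand: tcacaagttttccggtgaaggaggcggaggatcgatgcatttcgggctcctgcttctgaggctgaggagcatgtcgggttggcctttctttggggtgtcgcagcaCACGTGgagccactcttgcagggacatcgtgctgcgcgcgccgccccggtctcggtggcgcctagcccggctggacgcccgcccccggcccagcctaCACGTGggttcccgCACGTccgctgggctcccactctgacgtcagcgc
Pgk1 chrX:106186850-106187099 plus strand: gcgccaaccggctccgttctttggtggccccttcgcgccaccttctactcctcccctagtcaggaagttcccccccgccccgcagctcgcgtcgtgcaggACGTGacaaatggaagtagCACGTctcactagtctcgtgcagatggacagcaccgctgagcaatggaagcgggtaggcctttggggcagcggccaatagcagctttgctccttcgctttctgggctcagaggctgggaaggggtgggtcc
Pgam1 chr19:41911621-41911870 plus strand: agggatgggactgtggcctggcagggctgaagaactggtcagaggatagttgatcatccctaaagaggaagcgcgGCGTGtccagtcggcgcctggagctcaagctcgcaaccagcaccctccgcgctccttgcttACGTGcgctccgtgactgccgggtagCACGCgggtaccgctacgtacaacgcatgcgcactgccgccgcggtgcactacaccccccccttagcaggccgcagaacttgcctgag
Hk2 chr6:82774455-82774704 minus strand: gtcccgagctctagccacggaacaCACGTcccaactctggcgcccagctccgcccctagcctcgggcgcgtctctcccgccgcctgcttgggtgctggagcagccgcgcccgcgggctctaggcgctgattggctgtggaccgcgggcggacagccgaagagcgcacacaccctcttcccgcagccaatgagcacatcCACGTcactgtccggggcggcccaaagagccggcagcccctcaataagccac
In Ldha, 5 matches fall in these bases, of which 4 belong to 2 copies of CACGTG. In Pgk1 the 2 matches lie on opposite strands, in Pgam1 2 of the 3 are on the strand of the gene, and in Hk2 both are on the opposite strand.

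Hexokinases, the entry step, were the lowest of the enzymes. Hk1 (ENSMUSG00000037012, mm10 chromosome 10, 62268855 to 62379908, minus strand) encodes the hexokinase found in most tissues. It was at 5.10, 5.86 and 5.89 FPKM in cHet, against 5.75, 5.54 and 5.43 in cKO. The genotypes overlapped, with cHet replicate 1 the lowest of all 6 libraries. Its means were 5.62 ± 0.450 and 5.58 ± 0.164 FPKM (SD, n = 3 per genotype), and its log2 change was -0.01 (95% interval -0.17 to 0.16, limma adjusted p = 0.946). Hk2 (chromosome 6, 82725025 to 82774454, minus strand), the hexokinase known for its rise in proliferating and hypoxic cells, was at 5.54, 5.64 and 4.75 FPKM in cHet, against 4.43, 4.28 and 3.799 in cKO. Every cKO library was below every cHet library, but cHet replicate 3, the lowest of cHet, lay nearer to cKO replicates 1 and 2 than to either of the other cHet libraries. Its mean fell from 5.31 ± 0.487 to 4.17 ± 0.327 FPKM (log2 change -0.29, SE 0.0837, limma adjusted p = 0.036). The ratio of Hk2 to Hk1 was 1.09, 0.962 and 0.806 in cHet and 0.769, 0.771 and 0.700 in cKO. All 3 cKO ratios were the lower ones, and the two-sided exact permutation test gave p = 0.1, the smallest that 3 against 3 libraries allow.

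The enzymes that rearrange and split the sugar fell by different amounts. Gpi1 (chromosome 7, 34201330 to 34230336, minus strand) encodes the isomerase that turns glucose phosphate into fructose phosphate, and was at 35.9, 38.4 and 41.2 FPKM in cHet, against 35.0, 31.3 and 30.9 in cKO. The lowest cHet and the highest cKO library, both replicate 1, were close to each other. The mean of Gpi1 fell from 38.5 ± 2.67 to 32.4 ± 2.24 FPKM (log2 change -0.24, SE 0.0763, limma adjusted p = 0.0456). Aldoa (chromosome 7, 126795234 to 126800751, minus strand), the aldolase of muscle and of most embryonic tissue, was at 106, 114 and 122 FPKM in cHet, against 86.8, 73.3 and 69.1 in cKO. The gap between the genotypes was wider than the range within either of them. Mean Aldoa fell from 114 ± 7.66 to 76.4 ± 9.25 FPKM, which is 67.0% of cHet (log2 change -0.58, SE 0.0993, limma adjusted p = 0.00597). Tpi1 (chromosome 6, 124810586 to 124814296, minus strand) encodes the isomerase that lets both products of aldolase enter the later steps. It was at 138, 144 and 139 FPKM in cHet, against 119, 98.9 and 101 in cKO. The cHet libraries lay within a narrow band, and cKO replicate 1 stood between them and the other cKO libraries. Mean Tpi1 fell from 140.2 ± 3.20 to 106 ± 11.3 FPKM (log2 change -0.40, SE 0.0843, limma adjusted p = 0.0119).

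The enzymes between the split of the sugar and pyruvate kinase followed. Pgk1 (chromosome X, 106187100 to 106203699, plus strand), the kinase of the earlier ATP-yielding step, was at 138, 146 and 127 FPKM in cHet, against 115, 94.998 and 93.7 in cKO. Every cKO value was below every cHet value. The Pgk1 mean fell from 137 ± 9.45 to 101 ± 12.2 FPKM (log2 change -0.43, SE 0.1001, limma adjusted p = 0.0163). Pgam1 (chromosome 19, 41911923 to 41918660, plus strand) encodes the widely expressed phosphoglycerate mutase, and was at 84.8, 85.7 and 88.5 FPKM in cHet, against 76.8, 74.7 and 67.7 in cKO. The cHet libraries were close together, and cKO replicate 3 was the lowest. The Pgam1 mean fell from 86.3 ± 1.95 to 73.1 ± 4.76 FPKM (log2 change -0.24, SE 0.066, limma adjusted p = 0.0302). Eno1 (chromosome 4, 150236721 to 150248879, plus strand), the widely expressed enolase, was at 113, 123 and 112 FPKM in cHet, against 94.7, 71.0 and 70.6 in cKO. Here cKO replicate 1 stood well above the other cKO libraries, yet below all of cHet. The mean of Eno1 fell from 116 ± 6.37 to 78.8 ± 13.8 FPKM (log2 change -0.56, SE 0.122, limma adjusted p = 0.0132).

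Pkm and Ldha, at the end of the pathway, had the highest levels of the 10. Pkm (chromosome 9, 59656368 to 59679375, plus strand) encodes pyruvate kinase of muscle and embryonic tissue, and was at 197, 210.1 and 188 FPKM in cHet, against 156, 139 and 141 in cKO. The genotypes were separated by more than the range within either of them. Mean Pkm fell from 198 ± 11.01 to 146 ± 9.25 FPKM (log2 change -0.44, SE 0.0752, limma adjusted p = 0.00564). The table gives a value per gene, so the M1 and M2 splice forms of Pkm were not analysed here. Ldha (chromosome 7, 46841475 to 46855627, plus strand), the lactate dehydrogenase subunit that predominates in muscle and hypoxic tissue, was at 149.8, 160.0 and 151 FPKM in cHet, against 123, 100.3 and 98.0 in cKO. Every cKO library was again below every cHet library, with cKO replicate 1 the nearest to them. Its mean fell from 154 ± 5.48 to 107 ± 13.9 FPKM, which is 69.7% of cHet (log2 change -0.52, SE 0.0972, limma adjusted p = 0.00765). Ldhb, the other lactate dehydrogenase subunit of somatic tissue, was at 104, 105 and 98.4 FPKM in cHet, against 93.6, 91.5 and 90.4 in cKO. It missed the threshold (log2 change -0.16, limma adjusted p = 0.0671). The ratio of Ldha to Ldhb was 1.44, 1.52 and 1.54 in cHet and 1.31, 1.10 and 1.08 in cKO. The cKO ratios were all below the cHet ratios, with a two-sided exact permutation p = 0.1 that is again the smallest possible for n = 3 per genotype. Not every ratio examined separated the genotypes. Ldha to Pkm had means of 0.776 in cHet and 0.734 in cKO, with overlap (two-sided exact permutation p = 0.3). Gapdh, described below, to Pkm had means of 0.152 and 0.144, also with overlap (two-sided exact permutation p = 0.2).

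In cHet the order of levels per transcript length was Pkm, Ldha, Tpi1, Pgk1, Eno1, Aldoa, Pgam1, Gpi1, Hk1 and Hk2. Tpi1 and Pgk1, Eno1 and Aldoa, and Hk1 and Hk2 are neighbours whose cHet ranges overlapped, and the other neighbours did not overlap. Pkm was at or above 98.7% of tested genes by cHet level, Gpi1 at or above 91.4%, Hk1 at or above 44.1% and Hk2 at or above 42.3%. Together the 10 genes summed to 973, 1033 and 979 FPKM in cHet, against 818, 694 and 682 in cKO. As a share of all FPKM this was 0.359%, 0.375% and 0.374% in cHet and 0.332%, 0.292% and 0.266% in cKO. The share was lower in all 3 cKO libraries. Of the 10 genes summed, 9 already had every cKO value below every cHet value. The share therefore largely restates those values and adds no separate support.

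Among the cKO libraries, replicate 1 had the highest value for 10 of the 10 enzymes. It was the highest cKO library for 29.96% of all tested genes and for 54.6% of the genes that fell. The median deviation of the 10 enzymes from their cHet means was -0.03, 0.06 and -0.01 in cHet replicates 1, 2 and 3 and -0.24, -0.50 and -0.48 in cKO replicates 1, 2 and 3. Markers of skeletal muscle had a similar order of cKO libraries. Their median deviations were -0.11, 0.00 and 0.10 in cHet and -0.06, -0.55 and -0.54 in cKO. This order was not particular to muscle. Replicate 1 was also the least lowered cKO library for HIF targets outside glycolysis (-0.08, -0.24 and -0.22) and endothelium markers (-0.12, -0.24 and -0.21). The same held for pentose phosphate genes and chondrocyte markers. Erythroid markers differed, at -0.50, -0.31 and 0.43 in cKO. Of the 17 muscle markers 14 were tested, of which 5 fell, 9 missed the threshold and none rose. These counts stand against 17.5% lower and 18.7% higher of all tested genes. Among genes that averaged 30 FPKM or more, 38.5% were lower. The 17 muscle markers summed to 676 to 758 FPKM in cHet and to 449 to 685 FPKM in cKO. The muscle regulator Myod1 was at 19.5, 21.8 and 24.8 FPKM in cHet, against 15.3, 14.9 and 10.4 in cKO (log2 change -0.68, limma adjusted p = 0.0154), and Myf5 fell by 0.64 on the log2 scale (adjusted p = 0.0167). Without cHet replicate 2 the adjusted p was 0.0522 for Myod1 and 0.0597 for Myf5, and Myf5 also lost its call without cKO replicate 2 or cKO replicate 3. The adult muscle marker Ckm was near 0, at up to 0.178 FPKM, and was not tested. The part of muscle cells in the enzyme result was not tested.

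Cartilage markers moved further than the enzymes. The counts that follow stand against 17.5% of all tested genes that passed as lower and 18.7% as higher. Of 10 chondrocyte markers 9 fell and 1 did not pass, with median deviations of -0.88, -1.27 and -1.38 in cKO replicates 1, 2 and 3, and their sum was 253 to 270 FPKM in cHet and 133 to 155 FPKM in cKO. Hapln1, a linker of cartilage matrix, fell by 1.45 on the log2 scale (limma adjusted p = 0.00031), and the cartilage matrix gene Matn1 fell by 1.44 (adjusted p = 0.000733). In the opposite direction, 6 of 10 limb mesenchyme markers rose and 4 did not pass, with Msx2 at a log2 change of 1.28 and Hoxd13 at 0.75, and their sum was 458 to 468 FPKM in cHet and 600 to 695 FPKM in cKO. None of 11 tested erythroid markers passed, and their sum spanned 9858 to 13820 FPKM in cHet and 8168 to 17561 FPKM in cKO. None of these cell types was tested as a source of the enzyme result.

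**Figure D2:**
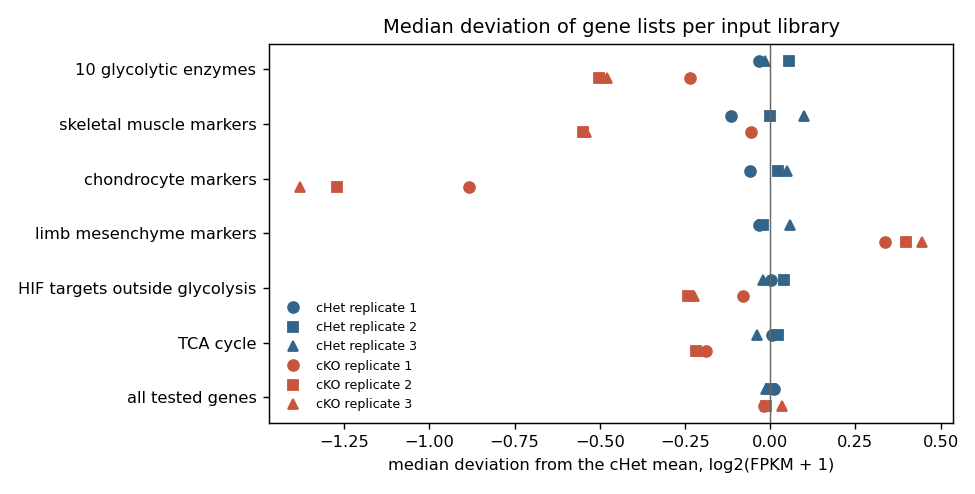
Median deviation of each gene list from its genes' cHet means, on the log2(FPKM + 1) scale, with a point for each input library. The 10 glycolytic enzymes lie at -0.24, -0.50 and -0.48 in cKO replicates 1, 2 and 3, skeletal muscle markers at -0.06, -0.55 and -0.54, and all tested genes near 0.

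Across the 6 libraries, 8 of the enzymes followed the mean of the other 9 with a Pearson r from 0.915 (Gpi1) to 0.999 (Ldha). For Hk2 r was 0.884 and for Hk1 it was 0.228. Most of this likeness is the difference between 3 cHet and 3 cKO libraries, so it is a description. The 5 tested genes outside the enzymes with the highest r to their mean profile were the processed pseudogene Gm16477 (0.999), the cyclophilin gene Ppia (0.998), the translation initiation factor gene Eif3k (0.997), the chaperone gene Hyou1 (0.997) and the processed pseudogene Gm12537 (0.997). Their log2 changes in cKO were -0.72, -0.36, -0.54, -0.34 and -0.40 in that order.

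Several of these enzymes have near-identical copies in the mouse genome, and the labels do not say how reads shared by copies were counted. For Eno1, 20.7% to 29.2% of the FPKM summed over Eno1 and Eno1b lay on Eno1b, depending on the library. For Pgam1, 23.9% to 25.7% lay on 2 pseudogene copies. Summed with their copies, Eno1 had a log2 change of -0.56 (limma adjusted p = 0.00721) and Pgam1 -0.24 (adjusted p = 0.0242). Copies held at most 8.33% of the sum for Pgk1, 7.47% for Tpi1, 2.59% for Gpi1 and 1.33% for Ldha. With copies summed, 9 of the 10 enzymes passed as lower, as they did without. The symbol Aldoa also stood on a second row (ENSMUSG00000114515, chromosome 7, 126800790 to 126809108), which was at 0.905, 0.802 and 1.75 FPKM in cHet, against 1.41, 1.57 and 1.42 in cKO. That row did not pass (log2 change 0.22, limma adjusted p = 0.320), and its genotypes overlapped.

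A list of other glycolytic genes held isozymes and the remaining steps. The table holds 20 of them, and 9 were tested. Of these, 3 fell, 2 rose and 4 missed the threshold, against 17.5% lower and 18.7% higher of all tested genes. The median log2 change of the 9 was -0.13. Among the 4 is Pgam5, which the list holds by its name but which encodes a protein phosphatase of mitochondria and no glycolytic mutase. Gapdh, which oxidises the split sugar ahead of Pgk1, was at 28.5, 32.8 and 29.4 FPKM in cHet, against 22.3, 19.7 and 20.8 in cKO (log2 change -0.51, limma adjusted p = 0.00355). Its genotypes were well apart, but 72.8% to 74.5% of the FPKM summed over Gapdh and 3 pseudogenes lay on the pseudogenes. With them summed, the values were 112, 121 and 113 FPKM in cHet, against 86.0, 77.4 and 79.4 in cKO, again without overlap (log2 change -0.51, adjusted p = 0.00256). The muscle isozymes of mutase and enolase fell as well. Pgam2 was at 15.2, 17.1 and 18.5 FPKM in cHet, against 12.498, 11.3 and 10.1 in cKO (log2 change -0.54, adjusted p = 0.00701), and Eno3 fell by 0.40 on the log2 scale (adjusted p = 0.0258). Eno3 lost its call without any cHet library in turn and without cKO replicate 2 or cKO replicate 3, with adjusted p up to 0.0732.

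Phosphofructokinase, the committed step between Gpi1 and Aldoa, did not pass as lower in either of its tested genes. Pfkm, its muscle isozyme, rose from 16.8, 19.2 and 19.5 FPKM in cHet to 22.2, 21.6 and 21.9 FPKM in cKO (log2 change 0.24, limma adjusted p = 0.035). All 3 cKO values of Pfkm were above the cHet values. Pfkl, the liver isozyme, had a log2 change of -0.13 and did not pass (adjusted p = 0.217). Pfkp, the platelet isozyme, was at 0.668 to 0.767 FPKM in cHet and 0.741 to 0.806 FPKM in cKO, too low to be tested. The ratio of Pfkm to Pfkl was 1.24, 1.29 and 1.34 in cHet and 1.57, 1.65 and 1.83 in cKO, with all cKO ratios the higher ones (two-sided exact permutation p = 0.1, n = 3 per genotype). Bpgm, which makes bisphosphoglycerate and is known from red cells, rose from 15.7, 18.0 and 16.1 FPKM to 19.6, 22.5 and 27.8 FPKM (log2 change 0.45, limma adjusted p = 0.0307). The isozyme genes Eno2 and Pklr were at up to 1.21 FPKM and were not tested. The calls of Pfkm and Bpgm were lost without cHet replicate 1, cHet replicate 2, cKO replicate 2 or cKO replicate 3, Pfkm also without cKO replicate 1 and Bpgm also without cHet replicate 3, with adjusted p up to 0.0919 and 0.0772.

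**Figure D3:**
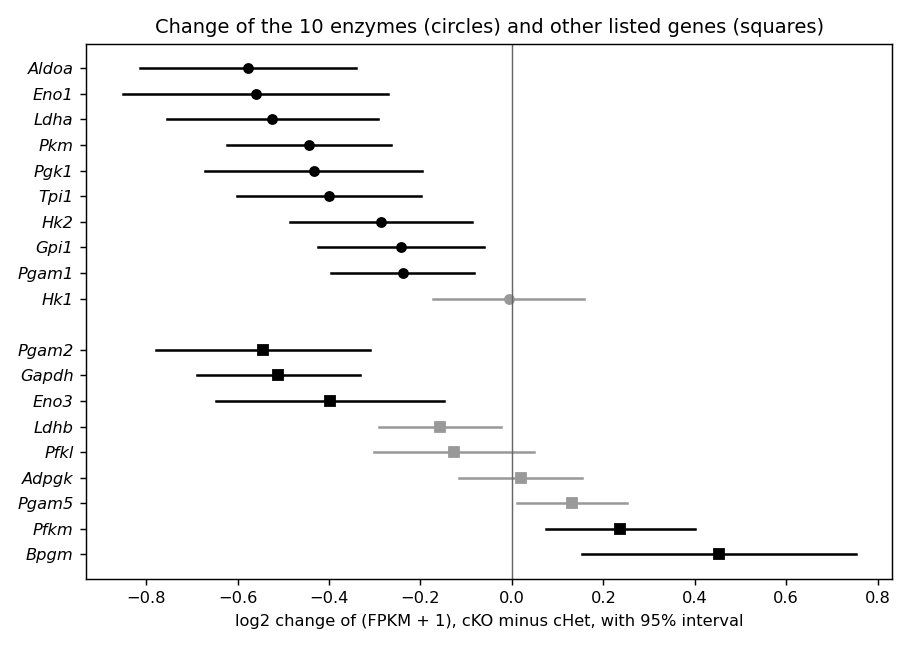
Log2 change of (FPKM + 1), cKO minus cHet, with its 95% interval, for the 10 enzymes (circles) and the 9 other listed genes tested (squares), among them the mitochondrial phosphatase gene Pgam5, black where the adjusted p passed and grey where it did not. Intervals are not adjusted for the number of genes, so that Ldhb and Pgam5 lie off 0 without passing. Hk1, at -0.01, turned to 0.12 with libraries rescaled to TPM.

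Among transport genes, Bsg, the chaperone that carries lactate transporters to the cell surface, was at 131, 136 and 136 FPKM in cHet, against 89.4, 82.8 and 92.8 in cKO, far apart (log2 change -0.60, limma adjusted p = 0.00155). Slc2a1, the glucose transporter GLUT1, was at 17.6, 20.7 and 20.2 FPKM in cHet, against 17.1, 14.99 and 13.5 in cKO, with both replicates 1 close to each other (log2 change -0.34, adjusted p = 0.0356). Slc2a3 and Slc2a4, which encode the glucose transporters GLUT3 and GLUT4, rose, with log2 changes of 0.30 (adjusted p = 0.0279) and 0.39 (adjusted p = 0.0185). These 3 transporters lost their calls without cHet replicate 2, cKO replicate 2 or cKO replicate 3, Slc2a1 and Slc2a3 also without cHet replicate 3, and Slc2a3 also without cHet replicate 1. The highest adjusted p with a library left out was 0.122 for Slc2a1, 0.0926 for Slc2a3 and 0.0709 for Slc2a4. Of 8 transport genes tested, 2 rose, 2 fell and 4 missed the threshold, shares near the 18.7% higher and 17.5% lower of all tested genes, and the median log2 change was 0.15. Among 10 regulators of the pathway tested, 2 rose, 1 fell and 7 did not pass. Pdk3, a kinase that shuts pyruvate dehydrogenase, fell by 0.34 on the log2 scale (adjusted p = 0.0114). The phosphatases Pdp2 and Pdp1, which reopen that enzyme, rose with log2 changes of 0.34 (adjusted p = 0.0106) and 0.31 (adjusted p = 0.0189). Without cHet replicate 2 the adjusted p was 0.053 for Pdk3 and 0.0707 for Pdp1, which also lost its call without cKO replicate 2 or cKO replicate 3. Pdk1, a textbook HIF target, did not pass (log2 change 0.07, adjusted p = 0.564).

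In the HIF pathway itself Hif1a, the oxygen-regulated subunit, was at 36.8, 33.2 and 30.05 FPKM in cHet, against 28.6, 31.5 and 33.4 in cKO. The genotypes overlapped (log2 change -0.09, limma adjusted p = 0.468), and the sign turned with TPM scaling, to 0.03. RNA does not report the stability of the HIF1A protein, which oxygen controls. Of the 10 pathway genes 2 fell, 1 rose and 7 missed the threshold, against 17.5% of all tested genes lower and 18.7% higher, and the median log2 change was -0.02. Egln3, an oxygen sensor and itself a textbook HIF target, was at 2.98, 3.13 and 3.03 FPKM in cHet, against 1.77, 1.91 and 1.83 in cKO, with tight groups far apart (log2 change -0.51, adjusted p = 0.00212). Hif3a fell by 0.34 on the log2 scale (adjusted p = 0.0283), and Arnt2, a partner subunit, rose with a log2 change of 0.25 (adjusted p = 0.0356). Of 19 textbook HIF targets outside glycolysis that were tested, 8 fell, 1 rose and 10 missed the threshold, and their median was -0.18. These counts too stand against 17.5% lower and 18.7% higher of all tested genes. Lox, which cross-links collagen, fell by 0.83 (adjusted p = 0.00212), the carbonic anhydrase gene Car12 fell by 0.54 (adjusted p = 0.00554) and the mitochondrial protein gene Fam162a fell by 0.50 (adjusted p = 0.00384). Ddit4, an inhibitor of mTORC1, rose with a log2 change of 0.22 (adjusted p = 0.0397). Hif3a and Arnt2 lost their calls without cHet replicate 2, cKO replicate 2 or cKO replicate 3 (adjusted p up to 0.089 and 0.131), Arnt2 also without cHet replicate 1, and Ddit4 lost its call without any library in turn (adjusted p up to 0.124).

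The m6A peaks came as 1 list per genotype, so a difference between the lists has no replicate check. Each peak carries the authors' log2 enrichment of IP over input, and its interval on mm10 can span introns. In the authors' deposited list for cHet, 19 peaks lay on 9 of the 10 enzyme genes and none on Eno1. In the authors' deposited list for cKO, 29 peaks lay on all 10. All 19 of the cHet peaks overlapped a cKO peak on the same gene by at least 1 base, while 87.1% of all cHet peaks did. Longer intervals overlap more readily. The median span was 1150 bases for the enzymes' cHet peaks and 750 bases for all cHet peaks. In cKO these spans were 1175 and 675 bases. Of the cKO peaks 18 overlapped a cHet peak and 11 did not, and 79.2% of all cKO peaks overlapped 1. The 11 were 3 on Eno1, 2 each on Hk1, Hk2 and Tpi1, and 1 each on Pgk1 and Pkm. Among tested genes 89.1% had a peak in the authors' deposited list for cHet and 90.3% in that for cKO.

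Peaks on the enzymes were of modest enrichment. In the authors' deposited lists their median log2 enrichment was 1.45 in cHet (range 1.06 to 2.92) and 1.28 in cKO (range 0.857 to 2.39). The medians over all peaks were 1.87 and 1.59, and 30.7% and 31.3% of all peaks were at or below the enzymes' medians. By the authors' annotation, the 19 cHet peaks fell in exons (6), 3′UTR (5), stop codons (4), start codons (2) and 5′UTR (2). Over all cHet peaks these classes held, in the same order, 17.4%, 36.5%, 18.9%, 8.25% and 4.96%. The 29 cKO peaks fell in exons (10), 3′UTR (5), stop codons (5), start codons (5) and 5′UTR (4). Over all cKO peaks the shares were 19.2%, 37.3%, 15.2%, 9.83% and 4.89%. A peak within 10 bases of the annotated 3′ end of the gene was present in 7 enzyme genes in cHet and in 9 in cKO, all except Pgk1. Over all tested genes with a peak, 69.5% and 75.9% had such a peak.

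The most enriched peaks lay on the hexokinases. In the authors' deposited lists, the Hk2 peak over the stop codon (chromosome 6, 82725025 to 82728756 in cHet) had a log2 enrichment of 2.92 in cHet and 2.25 in cKO. Its interval spans 3732 bases in cHet and 5823 in cKO, so these values cover unlike stretches. The Hk1 peak over the stop codon (chromosome 10, 62268855 to 62270004 in cHet) went from 2.59 to 1.69 in the authors' lists, and the 3′UTR peak of Gpi1 (chromosome 7, 34201330 to 34202529 in cHet) from 2.24 to 1.89. Among these 3 genes, Hk1 did not pass the test of its RNA. A link between peaks and RNA level was not tested. A peak near the 5′ end of Hk1 had values of 2.03 in cHet and 2.39 in cKO in the authors' lists, but the cKO interval covers 225 bases inside a much longer cHet interval.

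At the 3′ ends of Ldha, Pkm and Aldoa the cKO value was the higher one. The 3′UTR peak of Ldha (chromosome 7, 46855418 to 46855627) covers 210 bases in both of the authors' deposited lists, with a log2 enrichment of 1.44 in cHet and 1.86 in cKO. For the 3′UTR peak of Pkm (chromosome 9, 59679180 to 59679375 in cHet) the authors' values were 1.25 and 1.52, and for the 3′ end peak of Aldoa (chromosome 7, 126795234 to 126795358 in cHet) they were 1.09 and 1.41. The peak of Tpi1 over its stop codon (chromosome 6, 124810861 to 124811564 in cHet, 124810586 to 124811360 in cKO) went the other way in the authors' lists, from 1.64 to 1.18. So did the 3′UTR peak of Pgam1 (chromosome 19, 41918554 to 41918653 in cHet), from 1.53 to 1.27. Except for Ldha, the cHet and cKO intervals of these pairs were not the same. On Eno1, the authors' deposited cKO list holds a start codon peak (chromosome 4, 150237301 to 150239748, log2 enrichment 1.91), an exonic peak (150246599 to 150247481, 0.97) and a 3′UTR peak (150248676 to 150248875, 1.20).

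Over the 19 cHet peaks with their cKO counterparts, 13 had the lower value in cKO and 6 the higher, with a median difference of -0.26 in the authors' log2 enrichment. Over all 35867 such pairs in the authors' deposited lists 57.0% were lower and the median difference was -0.09. The counterparts of 2 neighbouring Pgam1 peaks are the same cKO peak, so these pairs are not separate. The labels do not say how IP was scaled against input in each genotype. The input RNA of 9 of these genes also differed between the genotypes, and its part in the enrichment values was not tested.

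**Figure D4:**
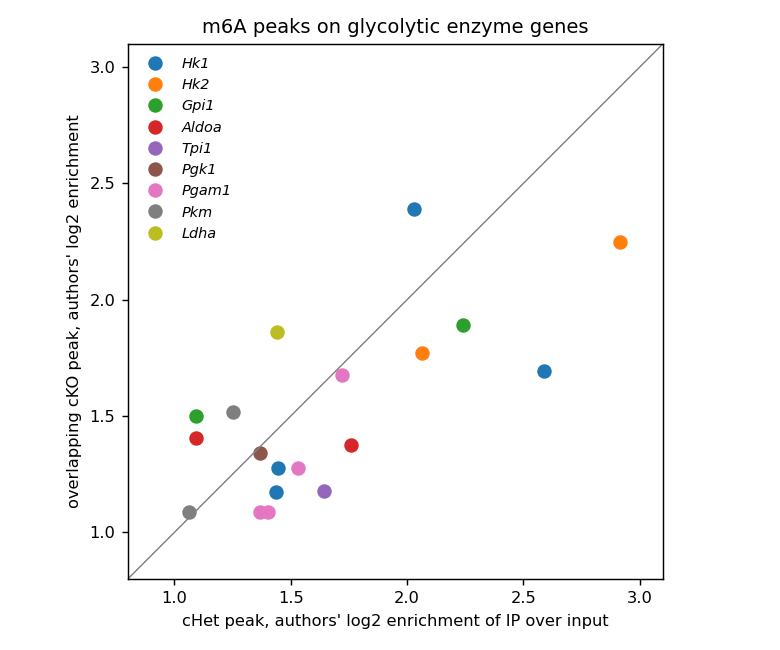
The authors' log2 enrichment of IP over input for the 19 cHet peaks on glycolytic enzyme genes (x axis) and for the overlapping cKO peak (y axis), coloured by gene, with the line of equal values. Of the 19 points 13 lie below the line, and the Ldha point lies above it at 1.44 and 1.86.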

How the data were processed

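Input and IP libraries of mouse limb buds were sequenced, 12 in 4 groups of 3. Reads were handled with fastp and HISAT2 on mm10, per the submitters' processing notes. Not given in the sources used here are the peak caller, the FPKM program and its handling of strand. The authors deposited FPKM for 6 input libraries, and all of these columns were matched to samples by their labels. Each peak in the authors' deposited lists carries a log2 enrichment and an adjusted p-value, some listed at 0. Peak positions are on mm10, 1-based, after 1 was added to each start. Per-library IP values were not analysed here.

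Genes that averaged 1 FPKM or more across the input libraries were fitted with limma 3.58.1 in R 4.3.3 on log2(FPKM + 1), with a trend in the prior variance, two-sided and with Benjamini-Hochberg adjustment. The fit was tested on simulated data. At most 0.612% of values under 0.05 FPKM shared a common ratio between libraries, so that reads were not recovered, depth is unknown and no count test was run. Peak and promoter tables were read with pandas 2.3.3 in Python 3.11.15, and pairs of peaks needed an overlap of at least 1 base.

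All enzymes were named. From each list of related genes, up to 3 called falls and 3 called rises of the greatest size without overlap were named (2 each way for markers), with Gapdh, the Pfk genes, Hif1a, Slc2a1 and Pdk1 in any case, and the 5 most similar profiles. Other genes, such as Ldhb and Ckm, were named after their values were seen. The enzymes and the lists were chosen with earlier results of these data known. Of 221 listed genes 219 were found. Alternatives covered the pseudocount, the filter, the scaling, a replicate block, the variance trend, each library left out in turn, copies summed, and stricter peaks, overlaps and motif.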

Additional observations from a re-analysis of the deposited data

How the results depend on the processing

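The falls of Aldoa, Pkm and Ldha passed under all 15 alternatives run, and that of Eno1 under all except the fit without cHet replicate 2 (adjusted p = 0.0546). Tpi1 lost its call in 2 alternatives, Pgk1 in 3, Hk2 in 8 of 14, Gpi1 in 9 and Pgam1 in 9, with the direction kept each time. The enzymes' median log2 change stayed between -0.49 and -0.29. With libraries left out in turn, 2758 to 5109 genes were called and 3 to 8 enzymes fell. Without cHet replicate 2 these were 2758 and 3, without cKO replicate 2 they were 3032 and 5, and without cKO replicate 3 they were 3464 and 5. Median-of-ratios scaling left 7 enzymes called, and no filter on low values left 6. Hk1, which never passed, turned to a log2 change of 0.12 (TPM) and 0.0061 (median of ratios), and to a sign above 0 without cHet replicate 2, cHet replicate 3 or cKO replicate 3 (range with libraries left out in turn -0.0649 to 0.0236). Hif1a turned to 0.0348 (TPM) and Pdk1 to -0.0058 (without cHet replicate 3, range -0.0058 to 0.1412), both without passing. The cause of these changes was not tested. Summing copies, which was chosen after the data were seen, left 9 enzymes called.

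With the replicate number as a block, 2889 genes and 5 enzymes were called. Same-numbered libraries had r of deviations across genes of -0.08, 0.04 and -0.20 for numbers 1, 2 and 3. Libraries of unlike numbers had r from -0.25 to 0.29. With 3 libraries per genotype these values cannot decide whether the numbers pair the samples.

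Of the enzyme peaks, 5 in the cHet list and 2 in the cKO list had a log2 enrichment of at least 2, and 2 of the former kept a counterpart at that level. With the authors' adjusted p under 1e-10, 15 cHet and 24 cKO peaks remained, and 13 cHet peaks had a counterpart when the overlap had to cover at least 50% of both peaks. Shares over all peaks at these stricter settings were not analysed here, so the counts have no background beside them.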

Other observations

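Counts in pathways that branch from glycolysis or follow it stand against 17.5% of all tested genes that passed as lower, 18.7% as higher, and 38.5% as lower among genes that averaged 30 FPKM or more. In the pentose phosphate pathway, which draws on glucose phosphate to make NADPH and ribose, 4 of 7 genes fell, 1 rose and 2 missed the threshold, and the median log2 change was -0.23. Tkt, its transketolase, went from 21.8 ± 0.948 FPKM in cHet to 15.5 ± 0.288 FPKM in cKO (log2 change -0.47, limma adjusted p = 0.00192), and Rpe and Taldo1 fell by 0.32 and 0.31 (adjusted p = 0.0285 and 0.0108). Pgd rose with a log2 change of 0.16 (adjusted p = 0.0478). Leaving out cHet replicate 2 ended the calls of Rpe, Taldo1 and Pgd (adjusted p = 0.101, 0.0546 and 0.13), and not that of Tkt. Rpe and Pgd also lost their calls without cHet replicate 1 or any cKO library in turn.

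Of 16 genes of the TCA cycle, which burns the carbon of pyruvate in mitochondria, 9 fell, none rose and 7 missed the threshold, and the median was -0.19. Sdhb, a subunit of succinate dehydrogenase, went from 37.8 ± 0.971 to 25.9 ± 1.25 FPKM (log2 change -0.53, limma adjusted p = 0.00167), and Suclg1 and Idh3g fell by 0.39 and 0.37 (adjusted p = 0.00467 and 0.00382). Between both pathways, among 10 tested genes of gluconeogenesis and pyruvate entry, 2 fell, 1 rose and 7 did not pass, shares near those of all tested genes or below them. Mpc2, a subunit of the mitochondrial pyruvate carrier, fell by 0.37 (adjusted p = 0.00838), and Dlat, a subunit of pyruvate dehydrogenase, fell by 0.26 (adjusted p = 0.0219). Dlat lost its call without cHet replicate 2, cKO replicate 1 or cKO replicate 2, with adjusted p up to 0.0923. Pck2, the mitochondrial carboxykinase that makes phosphoenolpyruvate, was at 2.30 ± 0.193 FPKM in cHet and rose to 3.996 ± 0.171 FPKM in cKO (log2 change 0.60, adjusted p = 0.00196).

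Among 8 regulators of the MYC and mTORC1 pathways 2 rose, none fell and 6 did not pass, with Tsc1 at a log2 change of 0.38 (limma adjusted p = 0.0066) and Mycn at 0.36 (adjusted p = 0.0281). Mycn lost its call without cHet replicate 2, cHet replicate 3, cKO replicate 2 or cKO replicate 3, with adjusted p up to 0.0968. Of the 8 m6A writer genes 6 rose and 2 fell, Mettl14 among the latter. Of 9 epidermis markers 2 rose and 1 fell, of 7 endothelium markers 2 fell, of 5 Schwann and neural crest markers 1 fell, and none of 7 macrophage and leukocyte markers passed. All counts in this paragraph stand against 17.5% of all tested genes that passed as lower and 18.7% as higher.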
